A study of Mus musculus with 14 samples.

Results

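The AP-1 transcription factors are described here by the mRNAs of 8 genes, Fos, Fosb, Fosl1, Fosl2, Jun, Junb, Jund and Atf3, which were taken by their symbols from the 23284 genes listed in each of the 2 expression tables. AP-1 is a dimer of basic leucine zipper proteins. Proteins of the Jun subfamily (Jun, Junb, Jund) pair with each other, with proteins of the Fos subfamily (Fos, Fosb, Fosl1, Fosl2) or with ATF proteins such as Atf3, whereas Fos proteins need a partner to bind DNA. Many of these genes are immediate early genes, which are transcribed within minutes of a stimulus, and the Ras-ERK pathway both increases the transcription of Fosl1 and stabilizes its protein. At promoters of TGF-β target genes AP-1 is known to act together with Smad proteins.

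RNA was sequenced from EpH4 cells, a mouse mammary epithelial line, and from EpRas cells, the derivative of EpH4 transformed with H-Ras. Untransfected EpH4 cells (medium with 10% serum) and EpRas cells (4% serum) were kept without TGF-β or given TGF-β3 (1 ng/ml) for 48 h, with 2 biological replicates, and so 2 libraries, for each of the 4 groups. In addition, EpRas cells transfected with control siRNA (siNC) or with 1 of 2 siRNA pairs that target the ETS transcription factors Etv4 and Etv5 were handled in the same way, with 1 library for each of the 6 conditions. EpRas is a single transformed line and was kept in another serum content than EpH4, so the transformation, the line and the serum cannot be told apart in any comparison of the lines.

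Each table gives FPKM, the fragments of a gene scaled to its exon length and to the size of the library, so that levels of genes of different length can be set side by side within a table. For 7 of the 8 genes the FPKM of all libraries were whole multiples of the value of 1 read, within 0.0094 of a read, which gave the number of reads behind each value once the relative depth of the libraries had been read from low genes. The deepest untransfected library was 1.36 times and the shallowest 0.609 times as deep as replicate 1 of unstimulated EpH4 cells. Fos was covered by 5 to 41 reads in the untransfected libraries, Fosb by 13 to 79 and Atf3 by 67 to 142, whereas Fosl2, Jun, Junb and Jund had between 290 and 4739 reads. Of 8 markers of mammary epithelium, Krt7, Krt8 and Krt18 lay at 561 FPKM or more in all 8 untransfected libraries, Epcam at 64.9 to 534 FPKM and Cdh1 at 18.2 to 93.7 FPKM. Krt14, a basal keratin, lay at 62.2 to 851 FPKM, whereas Krt5, its usual partner, lay at 0 to 0.0856 FPKM and Krt19, a luminal keratin, at 0 to 37.4 FPKM. The summed level of 9 markers of fibroblasts, endothelium, leukocytes and adipocytes was 2.51 to 5.28 FPKM in EpH4 cells and 6.31 to 10.3 FPKM in EpRas cells. Among these, Lum, Pecam1, Ptprc and Plin1 were listed at 0 in every untransfected library, Dcn, Cdh5 and Adipoq lay between 0 and 0.461 FPKM, and Pdgfra, a receptor of fibroblasts, and Cd68, a macrophage protein, were above 0 in every library, at 0.668 to 3.16 and 0.293 to 7.13 FPKM. The part of such cells in the differences between the lines was not tested, and in bulk RNA fewer cells of a type and less RNA per cell cannot be told apart.

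Replicates of TGF-β-stimulated EpRas cells stood further apart than those of the other groups. Between these 2 libraries 21.1% of the 9100 genes tested differed by 1.5-fold or more, compared with 2.53 to 9.75% in the other 3 groups, and 5 of the 7 AP-1 genes tested were among them (Fosl1, Fosl2, Jun, Junb and Jund). All 5 were higher in replicate 2. Log2 fold changes below that rest on this group are therefore also given without its libraries where a call or a direction depended on them.

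The sequences before the start sites of Fos, Jun, Junb and Atf3 are shown because they hold binding motifs of the AP-1, CREB/ATF or ETS families or a TATA box. Each covers the 250 bases before the RefSeq start (build GRCm38, the same as mm10), written 5′ to 3′ on the strand of the gene, with matches in capitals.
Fos (chr12:85473640-85473889, plus strand): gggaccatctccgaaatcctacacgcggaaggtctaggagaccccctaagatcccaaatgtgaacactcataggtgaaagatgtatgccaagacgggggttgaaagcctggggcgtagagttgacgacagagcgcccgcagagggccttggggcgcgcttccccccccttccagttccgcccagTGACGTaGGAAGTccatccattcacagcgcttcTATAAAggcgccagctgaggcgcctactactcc
Jun (chr4:95052223-95052472, minus strand): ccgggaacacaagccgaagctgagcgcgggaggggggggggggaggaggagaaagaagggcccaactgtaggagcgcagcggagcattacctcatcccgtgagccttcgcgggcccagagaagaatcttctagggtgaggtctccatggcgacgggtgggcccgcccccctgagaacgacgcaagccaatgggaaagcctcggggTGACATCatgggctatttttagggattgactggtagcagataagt
Junb (chr8:84978749-84978998, minus strand): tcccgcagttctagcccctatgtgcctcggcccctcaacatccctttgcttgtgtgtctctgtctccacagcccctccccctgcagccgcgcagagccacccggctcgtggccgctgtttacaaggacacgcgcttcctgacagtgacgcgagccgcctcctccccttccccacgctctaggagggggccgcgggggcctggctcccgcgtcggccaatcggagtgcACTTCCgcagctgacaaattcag
Atf3 (chr1:191183334-191183583, minus strand): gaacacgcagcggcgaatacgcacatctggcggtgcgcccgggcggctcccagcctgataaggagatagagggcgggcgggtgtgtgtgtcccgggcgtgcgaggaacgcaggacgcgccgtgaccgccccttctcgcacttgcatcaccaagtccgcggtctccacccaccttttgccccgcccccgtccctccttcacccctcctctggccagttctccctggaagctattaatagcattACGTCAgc
The motifs searched on both strands were the AP-1 site TGANTCA, the variant TGACATC, the CRE core TGACGT, the ETS core GGAAGT and the TATA box TATAAA. Fos held TGACGT starting 66 bases before its start site, GGAAGT 59 bases before it and TATAAA 33 bases before it. Jun held TGACATC 45 bases before the start site, a sequence of the kind known to bind Jun-ATF dimers. Junb held the ETS core on the opposite strand, beginning 23 bases before the start site, and Atf3 the CRE core on the opposite strand, beginning 8 bases before it. Of the 32851 RefSeq promoter windows of this length, 6.47% held TGACGT, 19.7% GGAAGT, 12.4% TATAAA, 4.83% TGACATC and 6.75% TGANTCA. The windows of Fosb, Fosl2 and Jund, which RefSeq also lists, held none of these motifs. The windows follow the RefSeq starts, from which those of GENCODE differ for 3 genes by more than a window. GENCODE extends Atf3 upstream to 191218039 and begins Fosl2 at 32135801, so that both windows lie within the gene as annotated there, and it begins Jund at 70698949, downstream of the window. What the windows of these 3 genes hold or lack therefore describes the bases before 1 annotated start only.

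Expression of the AP-1 genes spanned more than 2 orders of magnitude. Junb and Jund had the highest means of the family in all 4 groups, at 161 and 178 FPKM in unstimulated EpH4 cells, 458 and 175 FPKM in TGF-β-stimulated EpH4 cells, 175 and 179 FPKM in unstimulated EpRas cells and 334 and 166 FPKM in TGF-β-stimulated EpRas cells. Their order was not separated by the replicates in unstimulated cells, and Junb lay above Jund in both libraries of either line with TGF-β. Jun came next in each group. In TGF-β-stimulated EpRas cells its libraries and those of Fosl1 overlapped with those of Jund, and in replicate 2 both exceeded it. The libraries of Jun also overlapped with those of Fosl1 in unstimulated EpH4, unstimulated EpRas and TGF-β-stimulated EpRas cells. Fosl2 and Atf3 followed at 14.4 to 29.5 and 5.97 to 17.7 FPKM (group means), and in TGF-β-stimulated EpH4 cells Fosl1 lay below both, at 6.49 FPKM. Fos and Fosb were lowest, with group means of 1.00 to 4.19 and 0.836 to 4.55 FPKM, and were separated from the other 6 genes in both libraries of every group.

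**Figure D1:**
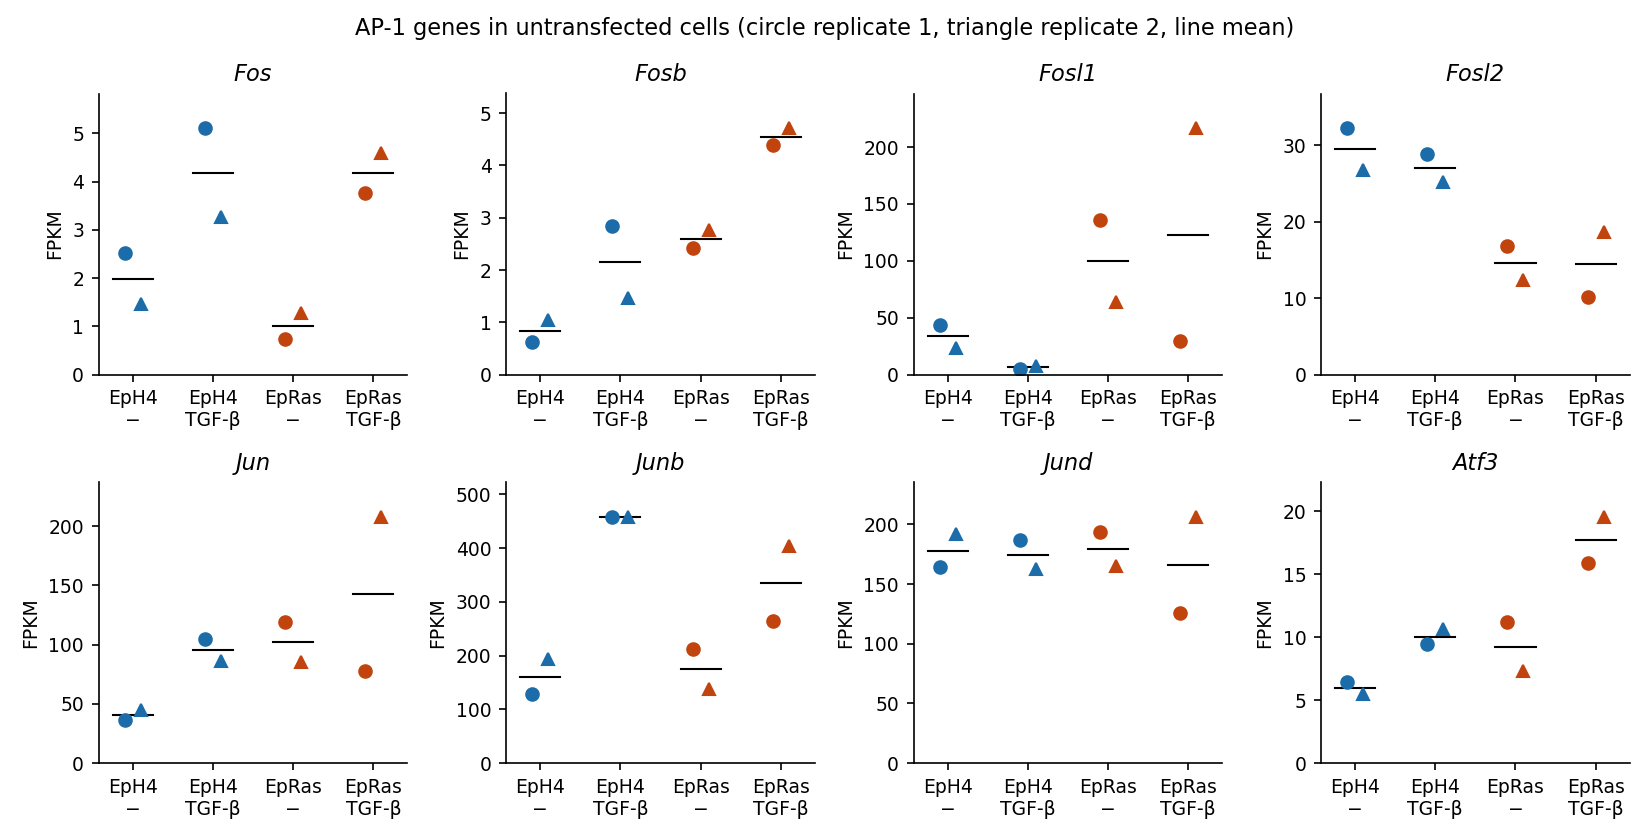
FPKM (vertical axes, from 0) of the 8 AP-1 genes in each untransfected library of EpH4 (blue) and EpRas (orange) cells without (−) and with TGF-β. Lines are means of 2 libraries; Fosl2 is lower in all 4 EpRas libraries than in any EpH4 library, and the replicates of Fosl1 and Jun lie far apart in TGF-β-stimulated EpRas cells.

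Comparisons were made with limma on log2(FPKM + 1), and a gene was called where its p-value, adjusted over all 9100 genes tested, was under 0.05. Fosb never reached the required 5 FPKM and was not tested, and Fos reached it in a single library, replicate 1 of TGF-β-stimulated EpH4 cells (5.11 FPKM), so that it was tested only through a group in which it was high. The line comparison asked which AP-1 genes differ between EpRas and EpH4 cells. Without TGF-β 0 of the 7 genes tested were called, where 17.6% of all genes were, and 3 had an unadjusted p under 0.05 (Atf3, Fosl2 and Jun). With TGF-β 2 of 7 were called, Fosl1 and Atf3, both higher in EpRas cells (21.3% of all genes were called, 8.92% as higher). Averaged over both treatments, 3 of 7 were called, Fosl1 and Atf3 as higher and Fosl2 as lower (15.7% and 17.6% of all genes, respectively, and 33.4% in all). The TGF-β comparison asked which of them respond to the cytokine. In EpH4 cells 1 of 7 was called, Junb (9.4% of all genes were called, 6.48% as higher), and in EpRas cells 1 of 7, Fos (3.82%, with 1.9% as higher). Averaged over the lines 3 of 7 were called, Fos, Junb and Atf3, all higher with TGF-β (7.35% of all genes, 12.3% in either direction). The difference between the TGF-β effects of the lines (interaction) was called for 0 of 7 genes, with 0 at an unadjusted p under 0.05, and for 0.802% of all genes. The Tukey-Kramer test on FPKM was run as an alternative on the 4 comparisons of single groups. Its p-values were adjusted over the 4 groups but not over genes, and low values were not filtered. Its calls are thus made at another threshold than those of limma, and the share of all genes it called was not counted. At p under 0.05 it called 0 of the 8 genes between the lines without TGF-β. It called Fosb between the lines with TGF-β, Junb for TGF-β in EpH4 cells and Atf3 for TGF-β in EpRas cells.

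A simpler reading asks whether the libraries of 2 groups overlap. Between the lines without TGF-β, Fosl1, Jun and Atf3 lay wholly above and Fos and Fosl2 wholly below in EpRas cells, where 30.6% and 30.4% of all genes did. With TGF-β, Fosl1 and Atf3 lay above and Fosl2 and Junb below (30.2% and 32.7%). In EpH4 cells with TGF-β, Fos, Jun, Junb and Atf3 lay above and Fosl1 below the unstimulated libraries (30.2% and 30.4%). In EpRas cells, Fos, Junb and Atf3 lay above and 0 members below (18.5% and 20.9%). Over all 8 libraries, Fosl2 lay below in EpRas cells and 0 members above (15.1% and 12.7%), and Fos and Junb lay above with TGF-β and 0 members below (5.43% and 3.9%). Between the lines taken at 1 treatment the members thus gave 2 or 3 of 7 in each direction, near these shares of all genes.

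**Figure D2:**
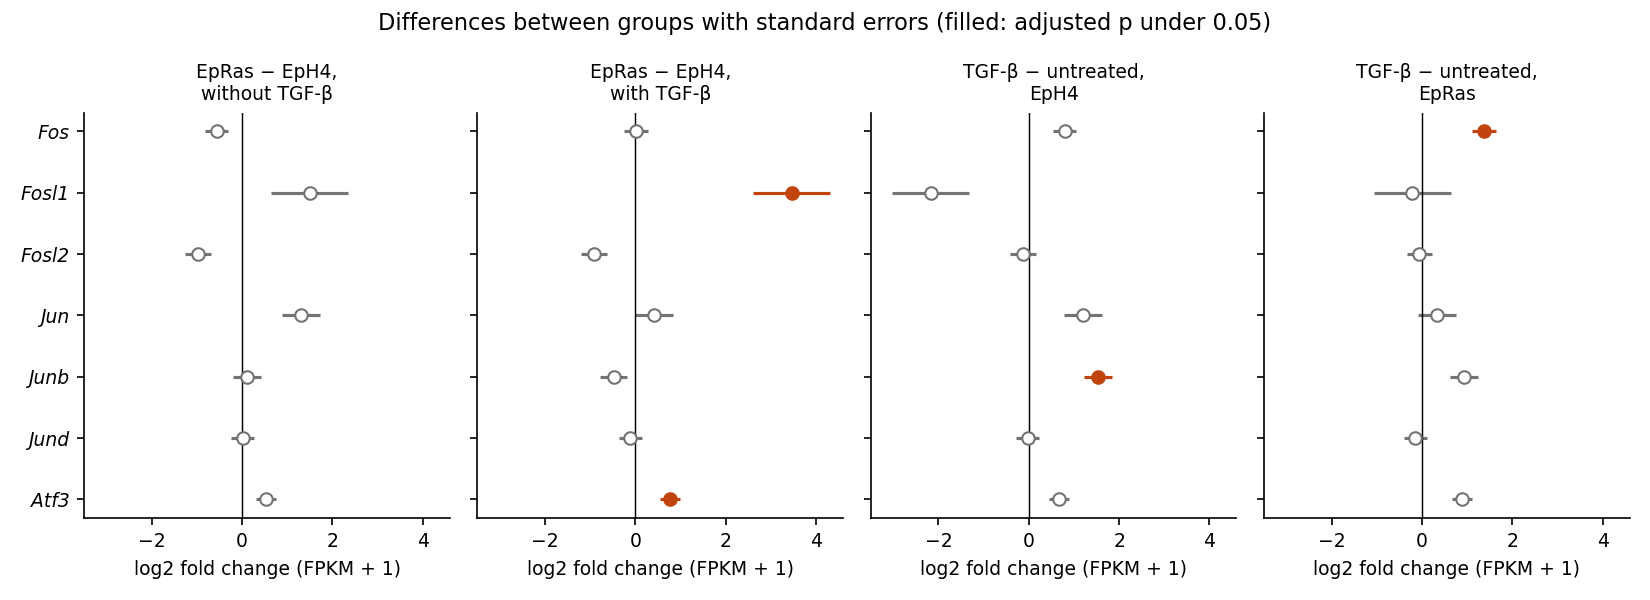
Log2 fold changes of FPKM + 1 (horizontal axes) for the 7 AP-1 genes tested, in 4 comparisons of groups with 2 libraries each. Bars are SEs and filled points have an adjusted p under 0.05; Fosl1 has the largest difference between the lines with TGF-β, 3.46, and the widest error.

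Within the Fos subfamily, Fosl1 and Fosl2 differed between the lines in opposite directions. Fosl1 encodes Fra-1, a factor known as an effector of Ras signaling and of invasion. Its locus in the authors' table (chr19:5447698-5457563) is shared with Ccdc85b, a gene on the opposite strand that overlaps Fosl1 by 2767 bases in GENCODE. Neither gene gave whole reads. How reads of the overlap were divided between them, and whether strand entered it, is not given in the sources used here. Fosl1 measured 44.1 and 23.5 FPKM in unstimulated EpH4 cells and 5.18 and 7.80 FPKM in TGF-β-stimulated EpH4 cells. In unstimulated EpRas cells it measured 136 and 63.7 FPKM, and in TGF-β-stimulated EpRas cells 29.3 and 217 FPKM. All 4 EpRas libraries thus lay above both libraries of TGF-β-stimulated EpH4 cells, and the last 2 values differed 7.41-fold between replicates. Without TGF-β the log2 fold change of EpRas against EpH4 was 1.499 (standard error, SE, 0.85, adjusted p = 0.27), and it passed the threshold without replicate 1 (0.0489) but not without replicate 2 (0.0688) of TGF-β-stimulated EpRas cells. With TGF-β it was 3.46 (0.85, adjusted p = 0.0263). This value was 4.88 without replicate 1 of TGF-β-stimulated EpRas cells and 2.04 without replicate 2, with adjusted p of 0.00176 and 0.0484. Over the alternatives of limma the adjusted p ranged from 0.00176 to 0.149, and it passed the threshold in 12 of 16, but not without replicate 1 (0.149) or replicate 2 (0.0969) of TGF-β-stimulated EpH4 cells. Averaged over treatment the difference was 2.48 (SE 0.60, adjusted p = 0.0177), which was lost without replicate 2 of unstimulated EpH4 (0.0629), replicate 1 of TGF-β-stimulated EpH4 (0.0665) or replicate 1 of unstimulated EpRas cells (0.0644). It was 3.19 without replicate 1 and 1.77 without replicate 2 of TGF-β-stimulated EpRas cells, with adjusted p of 0.000864 and 0.0153. For TGF-β in EpH4 cells the log2 fold change was -2.17 (SE 0.85, adjusted p = 0.173), and it passed the threshold without either library of TGF-β-stimulated EpRas cells (0.023 and 0.0378). For TGF-β in EpRas cells the value was -0.21 (0.85), and leaving out replicate 1 or replicate 2 of the stimulated group gave 1.21 or -1.64, so its direction differed with the library left out. Averaged over the lines the TGF-β effect was -1.19 (adjusted p = 0.259), and it was -0.48 (0.393) without replicate 1 and -1.90 (0.0262) without replicate 2. Ccdc85b stayed between 17.9 and 26.0 FPKM in these libraries. The intervals that Cuffdiff gave for Fosl1 were wide, from 0 to 15.3 FPKM around the value of 5.18 and from 74.0 to 360 FPKM around that of 217.

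Fosl2 (chr5:32136472-32157839) encodes Fra-2, the closest relative of Fra-1. The gene measured 32.2 and 26.8 FPKM in unstimulated EpH4 cells, 28.8 and 25.2 FPKM with TGF-β, 16.8 and 12.4 FPKM in unstimulated EpRas cells and 10.2 and 18.7 FPKM when EpRas cells received TGF-β. The highest EpRas library lay below the lowest EpH4 library, a separation of 4 libraries from 4 that 15.1% of all genes showed in this direction. Averaged over treatment Fosl2 was lower in EpRas cells by a log2 fold change of -0.95 (SE 0.20, adjusted p = 0.0107), and it stayed past the threshold in all 15 alternatives of limma, with adjusted p from 0.00344 to 0.0487. The 2 treatments gave -0.98 (adjusted p = 0.0567) and -0.91 (adjusted p = 0.0611) when taken alone. Without replicate 1 or 2 of TGF-β-stimulated EpRas cells the first had an adjusted p of 0.0143 or 0.0202, and the second became -0.50 (0.189) or -1.32 (0.0138). For TGF-β the log2 fold change was -0.12 in EpH4 cells and -0.06 in EpRas cells, with an SE of 0.29 for each, and the latter turned to 0.35 without replicate 1 and was -0.47 without replicate 2 of the stimulated EpRas cells.

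Fos (chr12:85473901-85477270), the founding member of the subfamily and a classical immediate early gene, was low at 48 h. It measured 2.52 and 1.46 FPKM in unstimulated EpH4 cells and 5.11 and 3.27 FPKM with TGF-β. Unstimulated EpRas cells had 0.738 and 1.27 FPKM, which rest on 5 and 16 reads, and TGF-β-stimulated EpRas cells 3.77 and 4.59 FPKM, which rest on 36 and 34 reads. All 4 libraries with TGF-β lay above all 4 without it, as for 5.43% of all genes. In EpRas cells Fos rose by 1.38 on the log2 scale (SE 0.26, adjusted p = 0.0333), a call kept in 4 of the 13 alternatives in which Fos was tested (adjusted p up to 0.224) and lost without the filter on low values (0.0642). It was not called without replicate 1 or 2 of TGF-β-stimulated EpRas cells, where the log2 fold change was 1.49 or 1.265. Nor was it called without replicate 1 or 2 of unstimulated EpRas cells (1.19 or 1.57) or replicate 2 of TGF-β-stimulated EpH4 cells (1.38). Averaged over the lines the rise was 1.09 (SE 0.18, adjusted p = 0.00931). It passed in the 13 alternatives in which Fos was tested, among them the fit without the filter, but Fos was not tested without replicate 1 of TGF-β-stimulated EpH4 cells. In EpH4 cells alone the change was 0.80 (0.26, adjusted p = 0.114).

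Fosb (chr7:19302696-19310045) stayed under 5 FPKM in the untransfected libraries. Its values were 0.619 and 1.05 FPKM in unstimulated EpH4 cells, 2.84 and 1.46 FPKM with TGF-β, 2.42 and 2.77 FPKM in unstimulated EpRas cells and 4.39 and 4.71 FPKM when these received TGF-β. EpRas libraries lay above EpH4 libraries of the same treatment, and treated libraries above unstimulated ones of the same line. When the filter on low values was left out, Fosb had a log2 fold change of 0.98 between the lines without TGF-β (SE 0.23, adjusted p = 0.0424) and of 0.85 with TGF-β (0.23, adjusted p = 0.0571). The TGF-β effects in that fit were 0.75 in EpH4 cells (adjusted p = 0.129) and 0.63 in EpRas cells (adjusted p = 0.287).

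The makeup of the Fos subfamily differed accordingly between libraries. Fosl2 held 66.8 and 68.7% of the summed FPKM of the 4 Fos genes in TGF-β-stimulated EpH4 cells and 40.6 and 50.7% in unstimulated EpH4 cells, whereas its share in the 4 EpRas libraries was 7.64 to 21.4%. Fosl1 held 79.5 and 87.2% in unstimulated EpRas cells, 61.5 and 88.6% in TGF-β-stimulated EpRas cells, 44.5 and 55.5% in unstimulated EpH4 cells and 12.4 and 20.7% in TGF-β-stimulated EpH4 cells. In each library of EpRas cells Fosl1 was therefore the larger part of the Fos subfamily, and in each library of TGF-β-stimulated EpH4 cells Fosl2 was. These shares are descriptions, and they carry the uncertainty of the Fosl1 estimate.

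**Figure D3:**
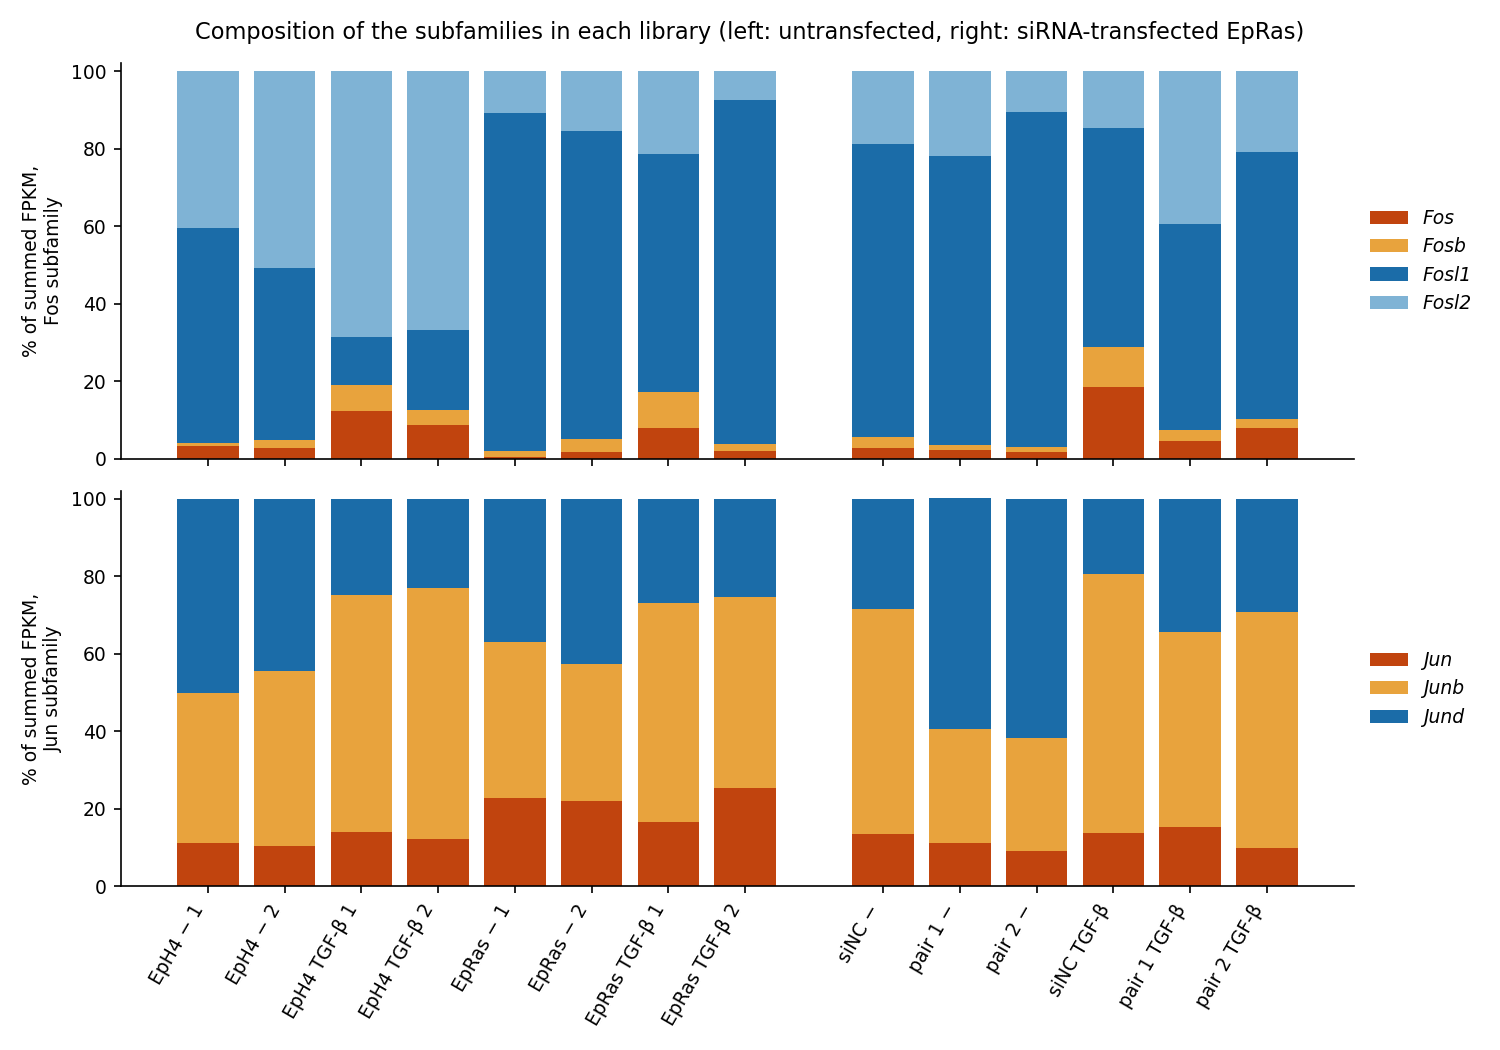
Share of the summed FPKM of the Fos subfamily (top) and of the Jun subfamily (bottom) held by each gene, in percent, for the 8 untransfected libraries (left) and the 6 libraries of siRNA-transfected EpRas cells (right), with − for unstimulated cells. Fosl1 takes 61.5 to 88.6% of the Fos subfamily in untransfected EpRas cells, and Jund takes 59.5 and 61.8% of the Jun subfamily in the unstimulated cells of the 2 Etv4/5 siRNA pairs.

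In the Jun subfamily, Junb was the gene that rose with TGF-β, in EpH4 cells and in the average of the lines. Junb (chr8:84976909-84978748) is a known early target of Smad signaling and can act as an activator or, against Jun, as an inhibitor. It measured 128 and 194 FPKM in unstimulated EpH4 cells and 457 and 459 FPKM with TGF-β. In EpRas cells it measured 212 and 137 FPKM without and 264 and 404 FPKM with TGF-β. The stimulated libraries of both lines exceeded all unstimulated ones. The log2 fold change was 1.53 in EpH4 cells (SE 0.31, adjusted p = 0.0233, 13 of 16 alternatives past the threshold) and 0.93 in EpRas cells (0.31, adjusted p = 0.192). The EpH4 call was lost without replicate 1 of the unstimulated (0.12) or replicate 1 (0.155) or 2 (0.142) of the stimulated EpH4 cells. For EpRas cells leaving out replicate 1 or replicate 2 of the TGF-β group gave 1.24 or 0.63. Averaged over the lines Junb rose by 1.23 (SE 0.22, adjusted p = 0.0111), which 13 of 15 alternatives kept (adjusted p of 0.0543 and 0.0524 without replicate 1 and 2 of stimulated EpH4 cells). Junb differed between EpRas and EpH4 by 0.11 (log2) without and -0.49 with TGF-β (SE 0.31, adjusted p = 0.836 and 0.302). The latter was -0.18 without replicate 1 and -0.79 without replicate 2 of TGF-β-stimulated EpRas cells, although the 2 groups given TGF-β did not overlap.

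Jun (chr4:95049036-95052222), the AP-1 protein most often found with Fos proteins, was lowest in EpH4 cells without TGF-β. In that group it measured 36.7 and 44.8 FPKM, below all 6 other libraries, a pattern whose share of all genes was not counted. Unstimulated EpRas cells and TGF-β-stimulated EpH4 cells each lay wholly above unstimulated EpH4 cells for 30.6% and 30.2% of all genes, respectively. It measured 105 and 86.1 FPKM in EpH4 cells with TGF-β, 119 and 85.8 FPKM in unstimulated EpRas cells and 77.7 and 208 FPKM after TGF-β in EpRas cells. The difference of unstimulated EpRas from unstimulated EpH4 cells was 1.30 on the log2 scale (SE 0.42, adjusted p = 0.0783) and that of TGF-β in EpH4 cells 1.21 (0.42, adjusted p = 0.136), neither past the threshold. Both passed when either library of TGF-β-stimulated EpRas cells was left out, at 0.00763 and 0.0127 for the lines and at 0.0156 and 0.0241 for TGF-β. For TGF-β in EpRas cells the value was 0.33 (0.42), and leaving out replicate 1 or replicate 2 of that group gave 1.03 or -0.38. Between the lines with TGF-β it was 0.42 (0.42), which became 1.12 (adjusted p = 0.0288) without replicate 1 and -0.29 without replicate 2. The interaction was -0.88 (SE 0.60, adjusted p = 0.641), with -0.17 without replicate 1 and -1.58 without replicate 2 of TGF-β-stimulated EpRas cells. In the averages, the line difference of Jun was 0.86 (adjusted p = 0.0641) and the TGF-β effect 0.77 (0.155). Leaving out replicate 1 of that group gave 1.21 (0.00247) and 1.12 (0.00765), and leaving out replicate 2 gave 0.50 (0.0648) and 0.42 (0.159).

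Jund (chr8:70697739-70700616), which is expressed in most resting cells, had similar means in the untransfected groups. It measured 165 and 192 FPKM in unstimulated EpH4 cells, 187 and 163 FPKM with TGF-β, 194 and 165 FPKM in unstimulated EpRas cells and 126 and 207 FPKM after TGF-β in EpRas cells. Its log2 fold changes in the 4 comparisons of single groups lay between -0.15 and 0.01 with an SE of 0.25 and overlapping libraries. Without replicate 1 or 2 of TGF-β-stimulated EpRas cells the value for TGF-β in EpRas cells became 0.21 or -0.50, and that between the lines with TGF-β 0.24 or -0.47, none past the threshold. Junb took 61.1 and 64.8% of the summed FPKM of the Jun subfamily in TGF-β-stimulated EpH4 cells and 38.8 and 45.1% without TGF-β, and Jund took 24.9 and 23.0% with and 50.0 and 44.5% without it. Jun held 22.7 and 22.1% in unstimulated EpRas cells against 11.2 and 10.4% in unstimulated EpH4 cells.

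Atf3 (chr1:191170297-191183333) encodes a stress-inducible ATF protein that binds Jun proteins and Smad3. It measured 6.43 and 5.52 FPKM in unstimulated EpH4 cells, 9.44 and 10.6 FPKM with TGF-β, 11.2 and 7.28 FPKM in unstimulated EpRas cells and 15.9 and 19.6 FPKM after TGF-β in EpRas cells. EpRas libraries lay above EpH4 libraries of the same treatment, and treated above unstimulated libraries of the same line. Between the lines Atf3 was higher in EpRas cells by 0.76 on the log2 scale with TGF-β (SE 0.22, adjusted p = 0.0485), a call kept in 5 of 16 alternatives with adjusted p of 0.0329 to 0.241. It did not pass without any one of the EpH4 libraries, where the log2 fold change was 0.68 to 0.84. Nor did it pass without replicate 1 or 2 of TGF-β-stimulated EpRas cells (0.90 or 0.61). Averaged over treatment the difference was 0.64 (0.16, adjusted p = 0.0176, 12 of 15 alternatives), with 0.0599 without replicate 2 of unstimulated EpH4 cells and 0.0739 and 0.0516 without replicate 1 and 2 of stimulated EpH4 cells. The TGF-β effect averaged over the lines was 0.78 (0.16, adjusted p = 0.019, 11 of 15 alternatives), and it missed the threshold without the same libraries (0.0732, 0.0702 and 0.0923) and without replicate 2 of unstimulated EpRas cells (0.0508). It was 0.66 in EpH4 (adjusted p = 0.118) and 0.89 in EpRas cells (adjusted p = 0.0858).

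Genes with the most similar profile over the 8 untransfected libraries were looked up by Pearson's r of log2(FPKM + 1), as a description of libraries that share groups and scaling. Atf3 was closest to Aplf (r = 0.989), Hbegf (0.979) and Metrnl (0.968). Junb was closest to Rgs12 (0.98), Creb3 (0.977) and Trim7 (0.975), and Jun to Syde1 (0.987), Pigh (0.982) and Ppp1r18 (0.974). Fosl2 was closest to Hmgb1 (0.994), Traip (0.993) and Smg5 (0.99), Fosl1 to Trnau1ap (0.977) and Fos to Lsm14b and Ugdh (both 0.966). Over the 6 siRNA libraries the same r was 0.923 for Atf3 with Hbegf, 0.977 for Junb with Rgs12 and 0.941 for Jun with Ppp1r18, and it ranged from -0.43 to 0.86 for the other pairs of a member and a similar gene.

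Of 24 genes with known AP-1 sites, 23 were tested. With TGF-β 11 rose and 0 fell in EpH4 cells, where 9.4% of all genes were called, and 8 rose and 0 fell in EpRas cells, where 3.82% were (median log2 fold changes of 0.96 and 0.79, against -0.02 and -0.02 over all genes). Mmp9, a gelatinase, rose by 6.37 on the log2 scale in EpH4 cells (SE 0.29, adjusted p = 6.07e-05), from a mean of 41.9 to 3570 FPKM. Its rise in EpRas cells was 3.95, from 28.2 to 465 FPKM. Mmp13, a collagenase, rose by 3.69 and 2.63, and Mmp10, a stromelysin, by 3.27 and 2.95 in EpH4 and EpRas cells, respectively. Comparing the lines, EpRas cells had 8 of them higher and 1 lower without TGF-β (17.6% of all genes were called), and 7 higher and 4 lower with it (21.3%). Mmp10 was higher by 2.94 without and by 2.62 with TGF-β, and Cd44, a hyaluronan receptor, by 1.16 and 1.41. Mmp9 was lower in EpRas than in EpH4 cells with TGF-β, by a log2 fold change of -2.99 (0.29, adjusted p = 0.000427).

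Other immediate early genes were 15 tested of 21. With TGF-β 4 rose and 1 fell in EpH4 cells, and 3 rose and 1 fell in EpRas cells (medians 0.27 and 0.34, against -0.02 and -0.02 over all genes, of which 9.4% and 3.82% were called). Ctgf, a matricellular growth factor, rose by 4.18 in EpH4 cells and by 2.58 in EpRas cells, and Cyr61, its relative, by 1.36 and 1.33. Klf4, a zinc finger factor of epithelia, fell by 1.098 in EpH4 cells and dropped by 1.66 in EpRas cells. Between the lines without TGF-β, 3 of them were called higher in EpRas cells and 1 lower, among the former Dusp1, a MAP kinase phosphatase, by 1.41 (SE 0.21, adjusted p = 0.00444). With TGF-β, 3 were higher and 2 lower. Of all genes, 17.6% and 21.3% were called in these comparisons of the lines.

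Of 20 other bZIP partners and relatives 14 were tested. Atf6, a sensor of the unfolded protein response, was higher in EpRas cells without TGF-β by 0.60 (adjusted p = 0.0414). Kinases, factors and ligases that act on AP-1 were 19 tested of 24. With TGF-β 0 were called by limma in either line, with 2 and 1 at an unadjusted p under 0.05 (9.4% and 3.82% of all genes were called). Between the lines 1 was called without and 2 with TGF-β, where 17.6% and 21.3% of all genes were. Elk1, an ETS factor that binds the Fos promoter with Srf, was lower in EpRas cells without and with TGF-β by 0.89 on the log2 scale in each case (adjusted p = 0.0151 and 0.0119), and Map2k1, the ERK kinase Mek1, was lower with TGF-β, with a log2 fold change of -0.69 (adjusted p = 0.0492).

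The siRNA libraries addressed how the AP-1 genes behave when Etv4 and Etv5 are reduced in EpRas cells. Etv4 measured 57.4 FPKM with siNC, 11.6 with pair 1 and 27.9 with pair 2 without TGF-β, and 64.3, 12.6 and 18.9 FPKM with TGF-β. Etv5 measured 8.85, 1.61 and 1.26 FPKM without and 5.34, 1.24 and 1.20 FPKM with TGF-β. Both targets were thus below siNC in all 4 libraries of the siRNA pairs. The summed markers of fibroblasts, endothelium, leukocytes and adipocytes were 9.17, 4.91 and 7.64 FPKM with siNC, pair 1 and pair 2 without TGF-β. With TGF-β they were 15.3, 4.59 and 7.45 FPKM. The part of such cells in the differences between these libraries was not tested. Each condition has 1 library, so that no test across replicates exists. Ratios carry exact binomial intervals (Clopper-Pearson, 95%) of the reads, which cover counting error only. The spread between the pairs is the only other guide, and it does not cover the siNC library that both pairs share at a treatment. The 2 tables were made in separate Cuffdiff runs, and their levels are not compared.

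**Figure D4:**
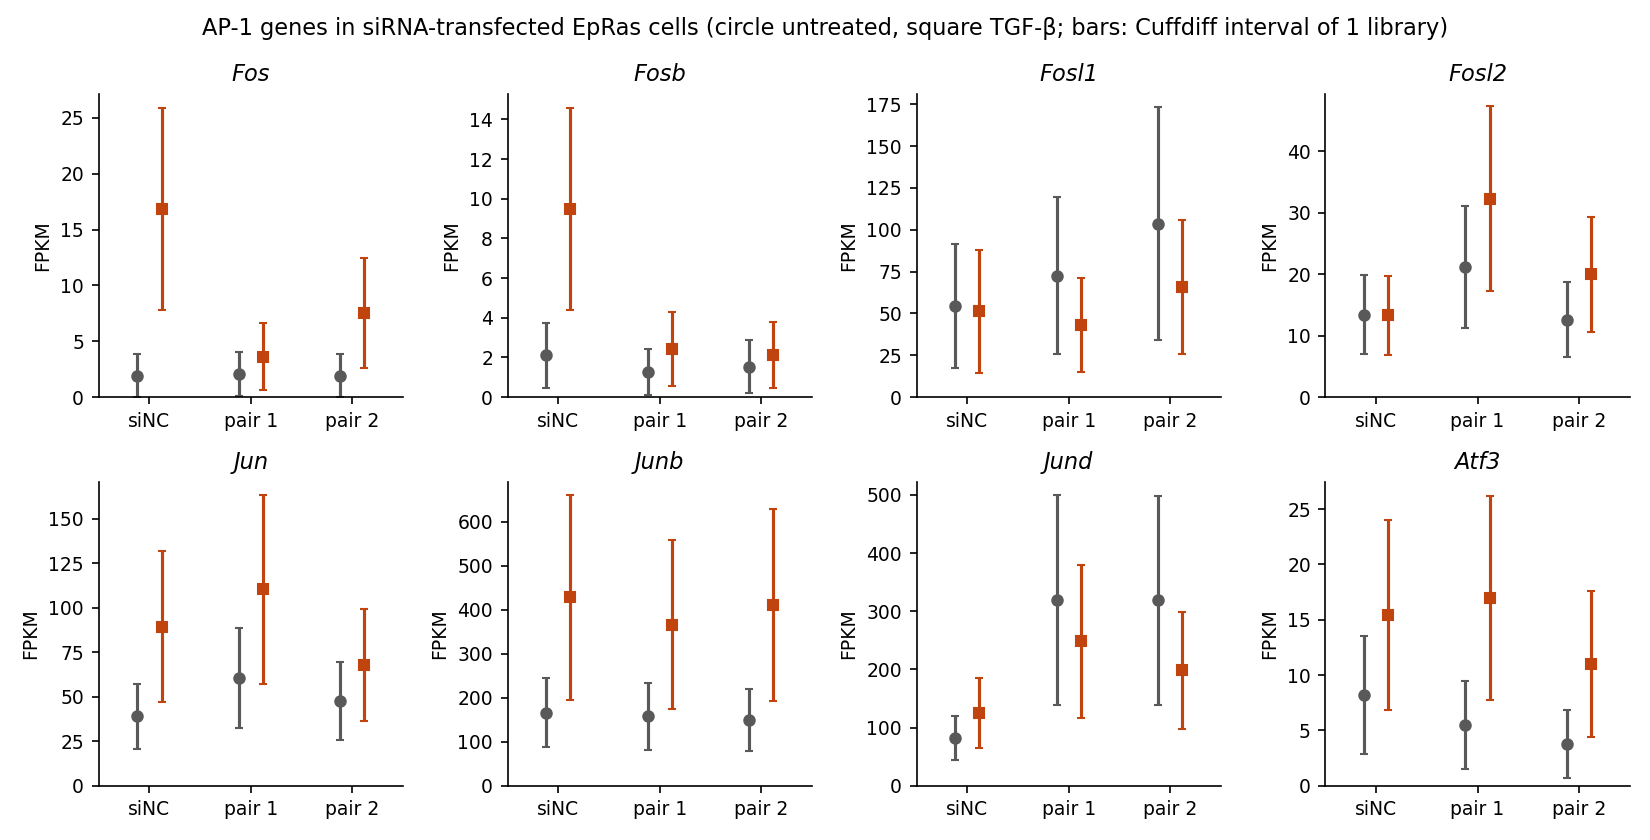
FPKM (vertical axes, from 0) of the 8 AP-1 genes in EpRas cells transfected with siNC or with pair 1 or 2 of Etv4/5 siRNAs, unstimulated (grey circles) or with TGF-β (orange squares). Bars are the intervals Cuffdiff gives for the single library; Fos and Fosb are high in the library of siNC with TGF-β, at 16.8 and 9.50 FPKM, and Jund is low in both siNC libraries.

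Without TGF-β 1 of the 8 AP-1 genes was past 2-fold in the mean of the pairs against siNC, Jund, which was higher (3.24% of the 9094 genes were past 2-fold higher). With TGF-β 2 of 8 were past 2-fold, Fos and Fosb, both lower (3.99%). Fosb reached 5 FPKM only in siNC cells with TGF-β, so that it entered this count through the library against which it was lower. Fos measured 1.92, 2.09 and 1.90 FPKM with siNC, pair 1 and pair 2 without TGF-β, from 27, 40 and 34 reads, and 16.8, 3.61 and 7.54 FPKM with TGF-β, from 412, 70 and 131 reads. With TGF-β pair 1 had 0.214 times (0.164 to 0.277) and pair 2 0.448 times (0.365 to 0.546) the level of siNC. Fosb measured 2.11, 1.28 and 1.54 FPKM without and 9.50, 2.43 and 2.13 FPKM with TGF-β. The treated cells of pair 1 and pair 2 had 0.256 (0.201 to 0.322) and 0.224 times (0.172 to 0.289) the level of siNC. The ratio of Fos with TGF-β to Fos without it was 8.77 (5.94 to 13.5) in siNC cells, 1.72 (1.15 to 2.61) in pair 1 cells and 3.96 (2.7 to 5.96) in pair 2 cells. For Fosb the ratios were 4.51 (3.41 to 6.06), 1.91 (1.32 to 2.78) and 1.38 (0.954 to 2.02). Fosb was past 2-fold lower with each pair, and so was Fos (2.49% of all genes with TGF-β). The ratios to siNC, and those of TGF-β in siNC cells, share the single library of siNC with TGF-β, in which both genes stood above the other 5 libraries. With TGF-β, 4 of the 8 members were past 2-fold higher in siNC cells on the FPKM + 1 scale, Fos, Fosb, Jun and Junb (3.23% of all genes), where Fosb again was admitted only by the library in which it was high. In pair 1 cells 2 were, Junb and Atf3 (3.67%), and in pair 2 cells 3, Fos, Junb and Atf3 (4.08%), whereas 0 were past 2-fold lower in any of them.

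Jund measured 81.6 FPKM with siNC, 319 with pair 1 and 319 with pair 2 without TGF-β, from 1623, 8622 and 8074 reads. With TGF-β it measured 125, 248 and 198 FPKM. Against siNC the ratio was 3.91 for both pairs without TGF-β (3.71 to 4.13 for either), and 1.98 (1.9 to 2.06) for pair 1 and 1.58 (1.52 to 1.65) for pair 2 with it. Both ratios of a treatment share the single siNC library of that treatment, so that their likeness does not cover the spread between siNC libraries. Both pairs were past 2-fold higher for 1.54% of all genes without TGF-β. In share, Jund held 28.5% of the Jun subfamily in unstimulated siNC cells and 59.5 and 61.8% in those of the pairs. The intervals that Cuffdiff gave for Jund without TGF-β, 43.3 to 119.9 FPKM for siNC and 139 to 500 FPKM for pair 1, did not overlap. With TGF-β they did, at 64.9 to 186 FPKM for siNC, 117 to 379 FPKM for pair 1 and 97.3 to 299 FPKM for pair 2. Those of Fos with TGF-β overlapped between siNC (7.78 to 25.9 FPKM) and pair 2 (2.64 to 12.4 FPKM), but not between siNC and pair 1 (0.612 to 6.61 FPKM).

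Of the other members, Fosl2 was higher than siNC with both pairs when TGF-β was given. Fosl2 measured 13.4, 21.2 and 12.6 FPKM without TGF-β with siNC, pair 1 and pair 2, and 13.3, 32.3 and 20.0 FPKM with it. With TGF-β the ratio to siNC was 2.42 (2.24 to 2.61) for pair 1 and 1.5 (1.37 to 1.64) for pair 2. Fosl1 measured 54.5, 72.5 and 104 FPKM without and 51.3, 43.4 and 65.8 FPKM with TGF-β, values for which no reads could be recovered. Ccdc85b, which shares its locus, measured 22.0, 20.7 and 36.0 FPKM without and 22.3, 14.2 and 15.9 FPKM with TGF-β, so that both genes were highest in unstimulated pair 2 cells. Jun measured 39.0, 60.4 and 47.6 FPKM without and 89.2, 110 and 67.6 FPKM with TGF-β, where the pairs lay on either side of siNC. Junb measured 166, 157 and 150 FPKM without and 428, 366 and 411 FPKM with TGF-β. Its ratio of TGF-β to no TGF-β was above 2 in each transfection, at 2.58 (2.46 to 2.71) with siNC, 2.33 (2.22 to 2.44) with pair 1 and 2.74 (2.62 to 2.88) with pair 2. Atf3 measured 8.19, 5.47 and 3.76 FPKM without TGF-β, below siNC for both pairs at 0.668 (0.503 to 0.886) and 0.459 times (0.331 to 0.631) its level. With TGF-β it measured 15.4, 16.9 and 10.98 FPKM. The ratio of TGF-β to no TGF-β was 1.88 (1.51 to 2.36), 3.1 (2.46 to 3.93) and 2.92 (2.18 to 3.96) with siNC, pair 1 and pair 2.

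**Figure D5:**
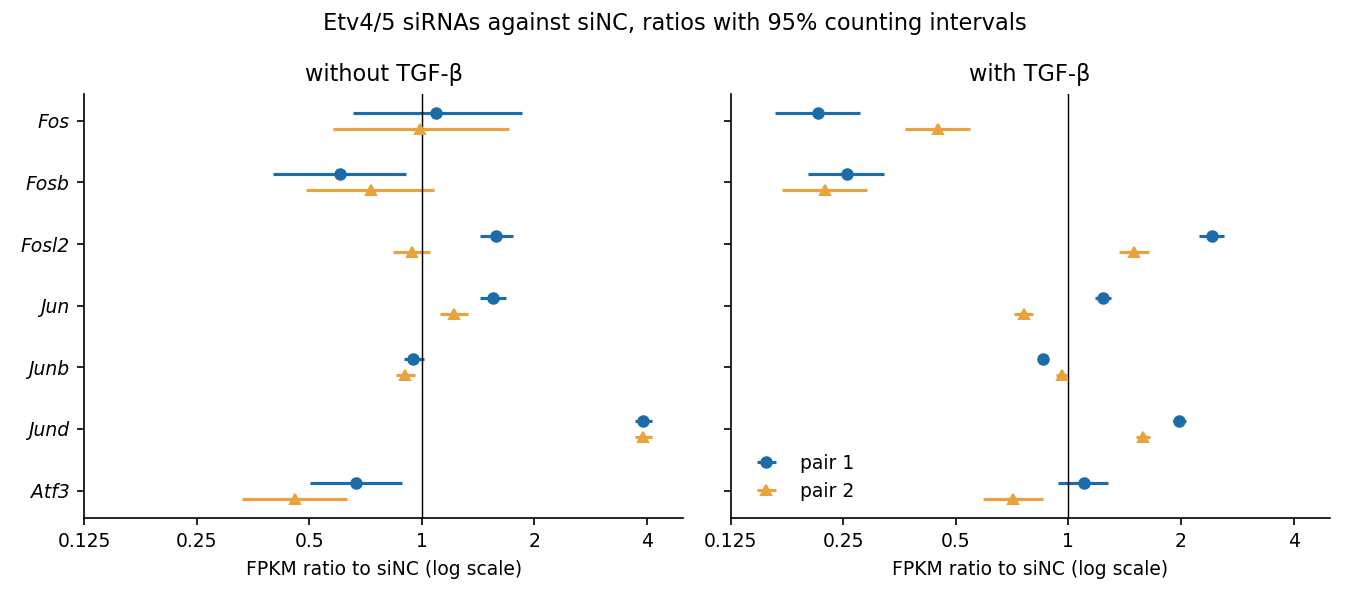
Ratio of FPKM to siNC (horizontal axes, log scale) for pair 1 (circles) and pair 2 (triangles) of Etv4/5 siRNAs, without TGF-β (left) and with TGF-β (right), for the 7 genes with recovered reads. Bars are 95% intervals for counting error, and both pairs of a treatment share 1 siNC library. Jund lies at 3.91 for both pairs without TGF-β, and Fos and Fosb lie at 0.214 to 0.448 with TGF-β.

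Genes with known AP-1 sites were 24 of 24 above 5 FPKM in at least 1 siRNA library. In the mean of the pairs 0 were past 2-fold higher and 5 lower without TGF-β (3.24% and 3.88% of all genes), and 0 higher and 6 lower with TGF-β (2.64% and 3.99%; median log2 differences of -0.54 and -0.60, against 0.01 and 0.03 over all genes). The 6 include Mmp12, a macrophage elastase, which reached 5 FPKM only in siNC cells with TGF-β, the library against which it was lower (6.47 FPKM against 0.0287 and 0.128 FPKM). Mmp13 measured 4.46, 0.801 and 0.684 FPKM with siNC, pair 1 and pair 2 without TGF-β, and 22.5, 5.80 and 3.92 FPKM with it. Ptgs2, the inducible cyclooxygenase, measured 220, 75.5 and 45.8 FPKM without TGF-β. Among other bZIP genes Atf5, a stress-related ATF protein, was higher in both pairs, at 16.3, 53.2 and 55.6 FPKM without TGF-β and 28.3, 80.1 and 113 FPKM with it. Of the kinases, factors and ligases acting on AP-1, 0 of 21 were past 2-fold in either treatment.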

How the data were processed

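The authors isolated polyA RNA, made directional libraries (Ion Total RNA-Seq Kit v2), sequenced them on the Ion Proton, mapped them with TopHat2 (genome build mm10) and computed levels with Cuffdiff; the submitters' notes name TopHat2 2.0.11, Bowtie2 2.2.2.2 and Cufflinks 2.2.0. The deposited values are FPKM, scaled by gene length and library, with Cuffdiff's intervals, in 2 tables from independently processed sets of samples, so tests were made within a table. Sums of FPKM were 502262 to 633763 in the untransfected and 533096 to 594299 in the siRNA libraries. Per-sample columns left unused were 0.

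Genes with OK status and a maximum of at least 5 FPKM (9100 untransfected, 9094 siRNA) were tested on log2(FPKM + 1), which understates changes of low genes, by limma (version 3.58.1, R 4.3.3) with empirical Bayes moderation (4 group means, no block, two-sided, Benjamini-Hochberg over all genes tested, threshold 0.05). For single siRNA libraries the mean of the pairs was compared with siNC, past 2-fold. Whole reads were recovered where one step fitted all libraries of a table within 0.05 of a read, from relative depths read off low genes; this step and limma were tested on simulated data. Calculations used Python 3.11.15, numpy 2.4.6, pandas 2.3.3 and scipy 1.17.1. Promoters and gene spans came from RefSeq (GRCm38.p6) and GENCODE M21.

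Alternatives were other pseudocounts, filters, scaling, an intensity trend, a replicate block, fits of the groups compared, Tukey-Kramer tests on FPKM, and each library left out. Named genes were all members, at most the 4 largest called changes per list and comparison, and the 3 most similar genes per member, leaving aside microRNA, snoRNA and unnamed gene models. The members, lists and rules were chosen with earlier results of these data known, and the promoter motifs after these windows were seen. H-Ras was not analysed here, and some genes of the lists are not reported here.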

Additional observations from a re-analysis of the deposited data

Results flagged for a closer look

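With TGF-β, Jund was higher in siNC cells and lower in the cells of both Etv4/5 siRNA pairs. Fosl2 was close to unchanged in siNC cells and higher in the cells of both pairs. For Jund the ratio of TGF-β to no TGF-β was 1.54 (1.45 to 1.63) with siNC, 0.777 (0.753 to 0.802) with pair 1 and 0.621 (0.599 to 0.644) with pair 2. These intervals cover counting error only. The wider intervals of Cuffdiff with and without TGF-β overlapped in siNC cells and in the cells of both pairs. For Fosl2 it was 0.994 with siNC, 1.52 with pair 1 and 1.59 with pair 2, and the interval of the siNC value (0.895 to 1.1) included 1. The difference was not tested for either gene, since each condition has 1 library. In the untransfected EpRas cells both libraries of Jund and of Fosl2 with TGF-β overlapped with those without it.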

How the results depend on the processing

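The counts of AP-1 genes called were small and moved with the processing; the cause was not tested. Between the lines without TGF-β, limma called 0 in the fit reported, 1 without the filter on low values (Fosb), 1 with an intensity trend (Fosl2) and 2 when only the groups compared were fitted (Fosl2 and Jun). Between the lines with TGF-β the count was 2, which became 1 with a pseudocount of 0.1 FPKM and 1 with a mean of at least 10 FPKM. It was 0 without the filter and 0 when only the groups compared were fitted. The Tukey-Kramer test, not adjusted over genes and without the filter, called 1 (Fosb). For TGF-β in EpH4 cells it was 1, and 4 in the fit of only the groups compared. For TGF-β in EpRas cells it was 1, and 0 with a pseudocount of 5 FPKM, without the filter, with the trend, with a mean of at least 10 FPKM and in the fit of only the groups compared, the last 2 of which no longer tested Fos. With a replicate block, the counts were 0 and 1 for the lines without and with TGF-β, 1 and 0 for TGF-β in EpH4 and EpRas cells, 0 for the interaction and 3 for each average. The replicate numbers are not stated to pair the libraries. Deviations of libraries with the same number correlated with r of -0.347 to 0.0785 between groups, which cannot show whether libraries share a batch. The block lowered the calls over all genes from 348 to 222 for TGF-β in EpRas cells. Leaving out 1 library at a time gave 0 to 3 and 0 to 2 called members for the lines without and with TGF-β, 0 to 3 and 0 to 1 for TGF-β in EpH4 and EpRas cells, 0 to 0 for the interaction, 1 to 4 for the average of the lines and 0 to 4 for that of TGF-β. Jun changed direction without replicate 2 of TGF-β-stimulated EpRas cells, to -0.29 between the lines with TGF-β (1.12 without replicate 1) and to -0.38 for TGF-β in EpRas cells (1.03 without replicate 1). For TGF-β in EpRas cells the values of Fosl1, Fosl2 and Jund, none past the threshold, also changed sign with the library left out of that group. For the siRNA pairs, 3 members were past 1.5-fold without TGF-β and 4 with it, and 1 was past 2-fold with TGF-β at a pseudocount of 5 FPKM. Depth limits Fos most, at 5 reads in 1 library of unstimulated EpRas cells.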

Other observations

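The balance of the subfamilies differed between conditions, as values that no comparison of the report uses. The summed FPKM of the Jun genes was 17.9 and 18.7 times that of the Fos genes in TGF-β-stimulated EpH4 cells and 4.14 and 8.14 times in unstimulated EpH4 cells. In EpRas cells the ratio was 3.37 and 4.84 without TGF-β and 9.83 and 3.35 with it, so that the replicates with TGF-β lay on either side of those without it. In the siRNA libraries it lay between 3.98 (siNC without TGF-β) and 8.87 (pair 1 with TGF-β).

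Among other immediate early genes in the siRNA libraries, Ier3, a regulator of apoptosis, was lower with both pairs. It measured 536 FPKM with siNC, 164 with pair 1 and 176 with pair 2 without TGF-β, and 556, 231 and 234 FPKM with it. Srf, the factor that binds the serum response element of Fos, measured 29.5, 56.7 and 66.4 FPKM with TGF-β. These are single libraries without a test.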
